A study of Mus musculus with 3 samples.

Results

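TRBV14 is one of the V gene segments of the mouse T cell receptor (TCR) beta chain, called Vβ13 in the older family naming. The clonotypes described here were chosen by their gene calls alone: the best matching V gene was TRBV14 and the best matching J gene was a TRBJ gene. A clonotype is a group of sequencing reads with one nucleotide CDR3 sequence. By this rule TRBV14 had 603 of 44807 TCR beta clonotypes in CD4 T cells, 5216 of 81212 in CD8 T cells and 1107 of 41948 in double negative (DN) T cells. Some occurred in more than 1 library (72 in CD4 and CD8, 70 in CD4 and DN, 244 in CD8 and DN, of which 37 in all 3), and 6577 distinct TRBV14 clonotypes remained when each was counted once. V genes were picked for description with their shares in these libraries already known, so the shares of TRBV14 below are a description and carry no test.

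All cells came from the spleen of 1 male mouse of the strain MRL.lpr, aged 16 weeks. This lupus-prone strain carries a defective Fas death receptor and accumulates T cells that have a TCR but neither the CD4 nor the CD8 coreceptor, the DN T cells. The CD4, CD8 and DN T cells were separated by flow sorting, and mRNA from 1000000 cells of each subset gave 1 library of TCR reads. The 3 libraries held 133667, 150874 and 194290 TCR beta reads for CD4, CD8 and DN T cells. With 1 library per subset and 1 mouse there was no replicate check: a difference between libraries compares these libraries, not the subsets in general. Intervals are 95% intervals and cover counting error only, because reads copied by PCR carry no molecular identifiers and do not count molecules. More cells of a clone and more TCR mRNA per cell cannot be told apart. The tables list only TCR genes, so the sorted subsets could not be checked against their coreceptor genes.

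A beta chain gene is assembled in the thymus by joining 1 V segment, 1 D segment and 1 J segment. The enzymes trim the ends of the segments and add random bases between them, so the junction, which encodes the CDR3 loop that touches the peptide, differs from clone to clone. TRBD1 and the TRBJ1 genes lie before TRBD2 and the TRBJ2 genes in the locus, so that TRBD1 can join J genes of both clusters while TRBD2 normally joins the TRBJ2 genes. A junction whose reading frame is broken makes no receptor and can persist in a cell whose other allele is functional.

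The unshortened end of TRBV14 was read from the data as the longest CDR3 start that at least 25% of the distinct TRBV14 clonotypes shared. It had 14 bases, from the codon of the conserved cysteine onward, and 38.5% of the 6577 distinct clonotypes carried all of them.
TRBV14 end: tgtgccagcagttt

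The clonotypes with the most reads show what was joined to this end. The following 7 were among the 3 largest TRBV14 clonotypes of a library. Sequences run 5′ to 3′ from the cysteine codon to the last codon of the CDR3. Lower case marks bases that match the TRBV14 end or the end of the J gene, and capitals mark the bases between them, from the D gene or added at the joins.
Clonotype 1, TRBJ2-5: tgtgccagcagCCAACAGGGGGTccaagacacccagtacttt
Clonotype 2, TRBJ2-3: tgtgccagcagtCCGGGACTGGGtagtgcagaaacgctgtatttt
Clonotype 3, TRBJ2-5: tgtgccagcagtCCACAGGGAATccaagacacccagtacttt
Clonotype 4, TRBJ2-4: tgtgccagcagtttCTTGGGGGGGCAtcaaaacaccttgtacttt
Clonotype 5, TRBJ2-2: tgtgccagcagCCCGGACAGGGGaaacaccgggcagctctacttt
Clonotype 6, TRBJ2-7: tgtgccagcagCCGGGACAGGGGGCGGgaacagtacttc
Clonotype 7, TRBJ2-4: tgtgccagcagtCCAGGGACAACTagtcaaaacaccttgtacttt

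Clonotypes 1, 2 and 3 were among the largest in the CD4 library, clonotypes 4 and 5 in the CD8 library and clonotypes 6 and 7 in the DN library. All 7 were in frame and all joined a TRBJ2 gene. These 7 kept 11 to 14 bases of the TRBV14 end and encoded 13 to 15 residues.

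TRBV14 took its largest share in CD8 T cells. It had 1910 reads or 1.43% of TCR beta reads in the CD4 (interval 1.37 to 1.49%), 9077 reads or 6.02% in the CD8 (5.90 to 6.14%) and 5076 reads or 2.61% in the DN library (2.54 to 2.68%). Counted by clonotypes, the shares were 1.35%, 6.42% and 2.64%. By reads it ranked 13 among the V genes in the CD4, 8 in the CD8 and 10 in the DN library. The order CD8, DN, CD4 held for reads and for clonotypes. The intervals did not overlap, but they cover counting error only and do not test this order. With the 10 largest TRBV14 clonotypes of each library left out, the read shares were 0.919% (CD4), 5.77% (CD8) and 1.88% (DN). These lay outside the intervals, in the same order.

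Among the 21 V genes with at least 100 reads in each library, few differed as much between CD8 and CD4 T cells. The ratio of read shares of CD8 to CD4 was 4.21 (4.01 to 4.42) for TRBV14, next to the highest, 4.74 for TRBV16, where the median V gene had 0.940. Of the 21 V genes, 38.1% were past 2-fold in either direction in this comparison. The ratio of DN to CD8 was 0.434 (0.420 to 0.449), the third lowest, and 19.0% of V genes were past 2-fold. The ratio of DN to CD4 was 1.83 (1.74 to 1.93), the fourth highest, and TRBV14 was not among the 33.3% of V genes past 2-fold there. Without its 10 largest clonotypes in each library the ratio of DN to CD4 was 2.05, and it was then past 2-fold.

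The V genes with a pattern most like TRBV14 over the 3 libraries were TRBV13-3, TRBV29 and TRBV17, at distances of 0.65, 0.68 and 1.03 on the log2 scale after each gene was centred on its own mean. TRBV13-3 took 5.81% of reads in the CD4, 14.9% in the CD8 and 11.7% in the DN library. TRBV29 took 1.21%, 2.75% and 2.04%. TRBV13-3 and TRBV29 had the order of TRBV14, with smaller gaps between CD8 and CD4 T cells. TRBV17 took 3.57%, 6.82% and 7.58%, so its largest share was in the DN library.

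**Figure D1:**
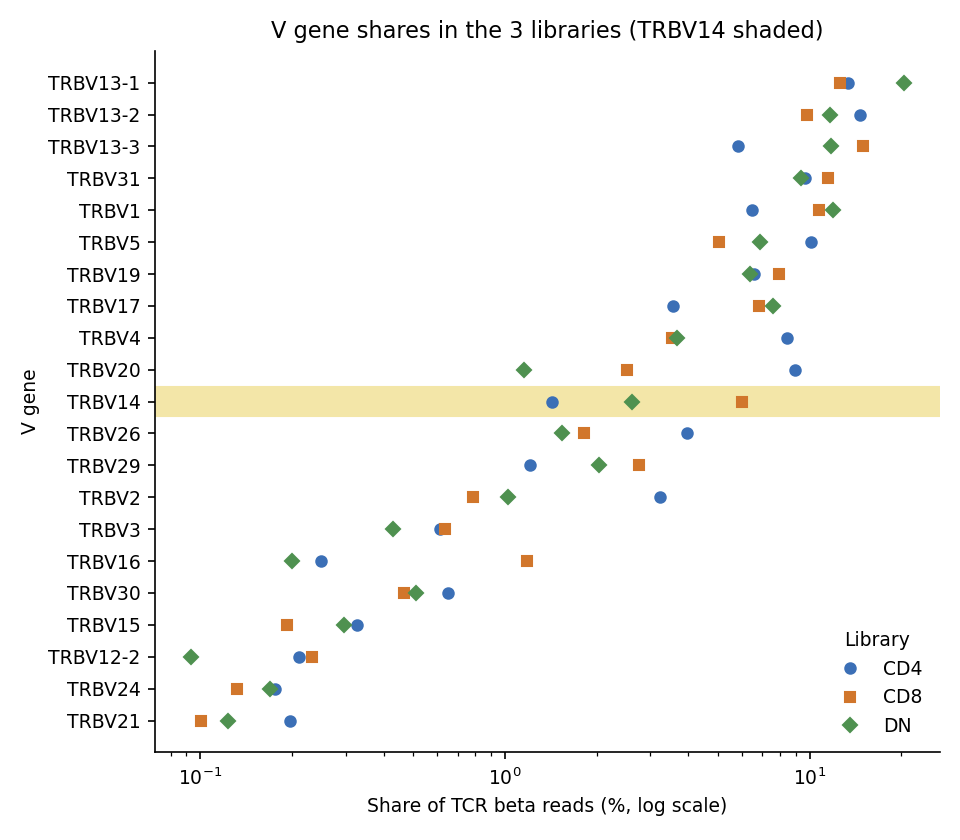
Share of TCR beta reads of each of the 21 V genes with at least 100 reads in every library, on a log scale, with 1 point for each of the CD4, CD8 and DN libraries and V genes ordered by their mean share. The shaded row is TRBV14, whose CD8 point at 6.02% lies far to the right of its CD4 point at 1.43%, with DN at 2.61% between them.

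Most TRBV14 clonotypes could encode a receptor. In CD4 T cells 529 of 603 clonotypes (87.7%, 84.9 to 90.1%) were in frame without a stop codon, against 92.2% of clonotypes of all other V genes (adjusted p = 0.00019, two-sided Fisher's exact test on clonotypes with Benjamini-Hochberg adjustment over all V genes and libraries). In CD8 T cells 5056 of 5216 (96.9%, 96.4 to 97.4%) were in frame, against 94.98% (exact test, adjusted p = 4.4e-11). In DN T cells 1004 of 1107 (90.7%, 88.8 to 92.3%) were in frame, against 91.0% (exact test, adjusted p = 0.697). TRBV14 thus differed from the other V genes downward in CD4 and upward in CD8 T cells, in 2 of 3 tests, where 84.1% of all such tests over the 21 V genes passed the threshold of 0.05. By its share in frame it ranked 15 of 21 V genes in the CD4, 6 in the CD8 and 10 in the DN library. Tests of this kind compare clonotypes within a library and carry no error between mice.

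Broken TRBV14 rearrangements were small. Those out of frame had 1.67 reads per clonotype in the CD4, 1.10 in the CD8 and 1.78 in the DN library, against 3.38, 1.76 and 4.88 for the in-frame ones. Other V genes had the same direction, with 2.02, 1.45 and 2.46 reads out of frame against 3.06, 1.89 and 4.85 in frame. Out-of-frame TRBV14 clonotypes made up 6.13%, 1.73% and 3.43% of TRBV14 reads. The largest had 19 reads in the CD4, 3 in the CD8 and 18 in the DN library. Of the 4, 17 and 5 clonotypes with a stop codon in frame, each had 1 read. Among CD4 clonotypes with at least 2 reads the in-frame share differed from that of other V genes by −2.26 percentage points, and the test no longer passed (exact test, adjusted p = 0.176).

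A marked feature of the TRBV14 junctions was the J gene TRBJ2-5, one of the J genes of the second cluster. In CD4 T cells it was joined to TRBV14 in 141 of 529 in-frame clonotypes (26.7%, 23.1 to 30.6%), against 11.7% for other V genes (exact test, adjusted p = 9.9e-19). In CD8 T cells it was joined in 950 of 5056 (18.8%, 17.7 to 19.9%), against 13.0% (exact test, adjusted p = 4.2e-27). In DN T cells it was joined in 216 of 1004 (21.5%, 19.1 to 24.2%), against 11.6% (exact test, adjusted p = 1.1e-16). TRBJ2-5 was the J gene of the most in-frame TRBV14 clonotypes in CD4 T cells, and came after TRBJ2-7 in CD8 and DN T cells. TRBV14 was not alone in this: TRBV3 had a higher share of TRBJ2-5 in each library (43.6%, 39.1% and 39.4%), and TRBV14 ranked 2, 4 and 4 of the 21 V genes.

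Among TRBV14 rearrangements that were out of frame or held a stop codon, an excess of TRBJ2-5 could not be shown at the depth available. TRBJ2-5 was in 10 of 74 of them in the CD4 (13.5%, 7.51 to 23.1%), 24 of 160 in the CD8 (15%, 10.3 to 21.3%) and 15 of 103 in the DN library (14.6%, 9.03 to 22.6%). The corresponding shares for other V genes were 13.0%, 13.6% and 12.9%. This comparison was made after the in-frame values were seen and was not tested. Each interval included the value of the other V genes and overlapped that of the in-frame TRBV14 clonotypes.

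Over all 12 J genes and 3 libraries, TRBV14 passed the threshold in 14 of 36 tests, 4 higher and 10 lower, where 30.3% of the tests over all V genes passed. TRBJ2-4 was lower in each library: 3.40% of in-frame TRBV14 clonotypes against 8.03% in the CD4 (exact test, adjusted p = 0.00018), 6.80% against 7.92% in the CD8 (adjusted p = 0.0155) and 3.29% against 6.74% in the DN library (adjusted p = 3.2e-05). TRBJ2-3 was lower in CD8 and DN T cells, TRBJ1-4 in CD4 and CD8, TRBJ1-2 and TRBJ1-6 in CD8, and TRBJ1-1 in DN T cells. TRBJ2-7 was higher in CD8 T cells, at 22.5% against 20.9% (exact test, adjusted p = 0.031). Taking the J genes by cluster, TRBJ2 genes were in 73.3%, 73.7% and 75.2% of in-frame TRBV14 clonotypes in CD4, CD8 and DN T cells, against 63.3%, 69.0% and 70.6% for other V genes. With clonotypes of at least 2 reads alone, 7 of the 36 J tests passed, and the higher share of TRBJ2-5 passed in all 3 libraries. The lower share of TRBJ2-4 then passed in none of them (exact test, adjusted p = 0.0707 in CD4, 0.193 in CD8 and 0.086 in DN). TRBJ1-4 in CD4 and CD8, TRBJ2-3 and TRBJ2-7 in CD8 and TRBJ1-1 in DN T cells did not pass either.

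**Figure D2:**
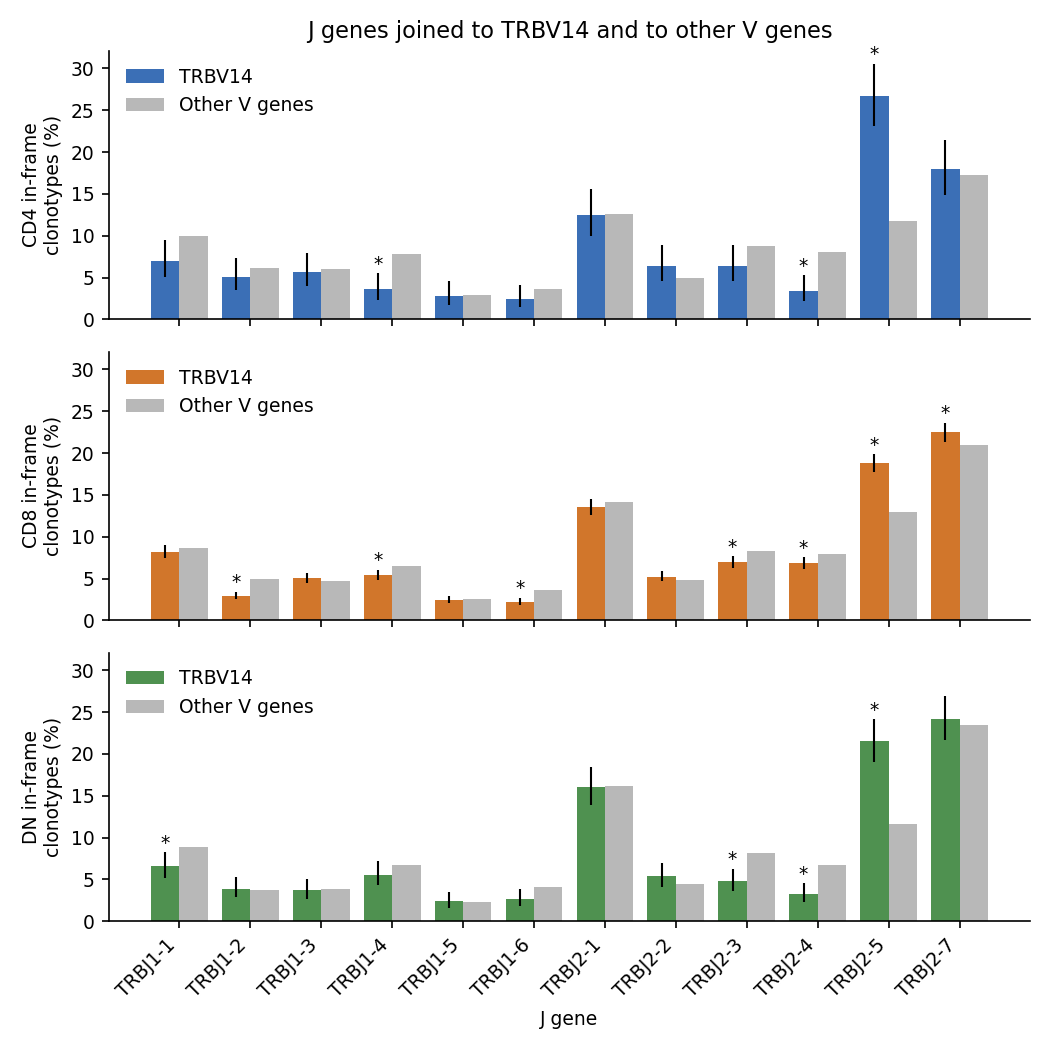
Share of in-frame clonotypes joined to each J gene (%), in coloured bars for TRBV14 with 95% Wilson intervals and in grey bars for all other V genes, in 1 panel per library; asterisks mark an adjusted p under 0.05. TRBJ2-5 is higher for TRBV14 in all 3 panels (26.7%, 18.8% and 21.5%) and TRBJ2-4 is lower in all 3.

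Reads gave a different picture of J use in CD4 and DN T cells. TRBJ2-5 held 46.7% of in-frame TRBV14 reads there, 18.8% in CD8 and 20.03% in DN T cells. Clonotype 1, printed above, was a large part of the CD4 value, and without it TRBJ2-5 held 34.6% of the reads. In DN T cells TRBJ2-1 was in 16.0% of in-frame TRBV14 clonotypes and in 20.7% of their reads.

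The D calls of TRBV14 junctions leaned to TRBD1. Among in-frame clonotypes with a TRBJ2 gene and a D call, where both D genes are possible, TRBD2 was called in 134 of 322 in CD4 (41.6%, against 54.8% for other V genes, exact test, adjusted p = 1.1e-05). In CD8 T cells TRBD2 was called in 1262 of 2961 (42.6%, against 57.7%, exact test, adjusted p = 5.7e-55). In DN T cells it was called in 310 of 627 (49.4%, against 66.7%, exact test, adjusted p = 1.8e-17). The share of TRBD2 was lower than that of other V genes in every library, by 13.2, 15.1 and 17.2 percentage points. TRBV14 was not alone in this: TRBV29 had lower shares still (32.7%, 31.1% and 37.0%). Counted from the highest share, TRBV14 ranked 18, 19 and 18 of the 21 V genes.

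TRBV14 junctions without any D call were also fewer. They made up 18.9% of in-frame clonotypes in the CD4 (against 26.6%, exact test, adjusted p = 0.00014), 21.8% in the CD8 (against 26.6%, adjusted p = 1.3e-13) and 19.1% in the DN library (against 23.4%, adjusted p = 0.0034). All 6 tests of D use passed with TRBV14 lower, where 52.4% of the D tests over all V genes passed. With at least 2 reads, the difference in junctions without a D call in DN T cells was −2.58 percentage points and no longer passed (exact test, adjusted p = 0.335). Clonotypes that named TRBD2 with a TRBJ1 gene, a join against the order of the locus, show the error of D calls: 9 of 141 TRBV14 clonotypes with a TRBJ1 gene in the CD4, 86 of 1329 in the CD8 and 9 of 249 in the DN library.

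Trimming of the V end differed between the 3 libraries by less than its spread over clonotypes. In-frame TRBV14 clonotypes kept 12.2 ± 1.81 bases of the 14 in the CD4, 12.3 ± 1.80 in the CD8 and 12.3 ± 1.92 in the DN library (SD over 529, 5056 and 1004 clonotypes). At least 11 bases were kept by 94.3%, 93.8% and 92.7% of them, and all 14 by 35.2%, 38.6% and 40.7%. The counts include added bases that match the end by chance. Between the V and J ends lay 11.5 ± 4.11, 11.2 ± 4.35 and 12.3 ± 4.39 bases in CD4, CD8 and DN T cells.

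**Figure D3:**
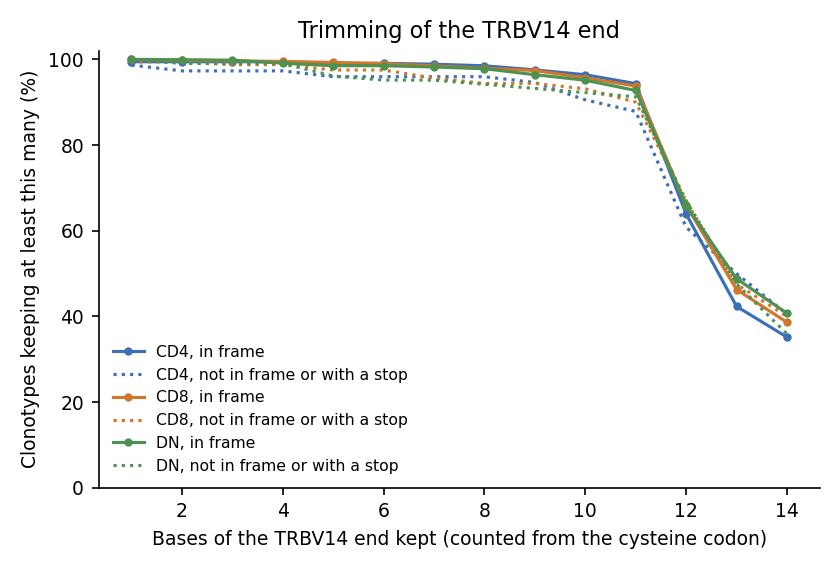
Share of TRBV14 clonotypes (%) that keep at least a given number of bases of the 14-base TRBV14 end, counted from the first base of the cysteine codon, in solid lines for in-frame clonotypes and dotted lines for those out of frame or with a stop codon, in 1 colour per library. The curves stay above 87% to base 11 and fall to between 35.2% and 40.7% at base 14 in the in-frame clonotypes of the 3 libraries.

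A few residues made up most of the fifth position of the CDR3, where the TRBV14 end stops. Among in-frame TRBV14 clonotypes whose first 4 residues were those of the untrimmed V end, the fifth was phenylalanine in 24.0% in the CD4, 28.5% in the CD8 and 31.8% in the DN library. Leucine followed with 23.6%, 21.4% and 22.0%, and proline with 22.5%, 21.3% and 19.8%. Glutamine was the fifth residue in 2.70% of these clonotypes in CD4 T cells but in 22.0% of their reads, most of them from clonotype 1.

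Counted by clonotypes, mean CDR3 length differed from that of other V genes by less than its spread. The mean over in-frame TRBV14 clonotypes was 13.9 ± 1.23 residues in the CD4, 13.8 ± 1.52 in the CD8 and 14.1 ± 1.5 in the DN library (SD over clonotypes), against 13.9, 13.9 and 14.2 for other V genes. Long CDR3s, of at least 15 residues, made up 30.8% against 35.1% in the CD4 (exact test, adjusted p = 0.0536), 30.2% against 35.4% in the CD8 (adjusted p = 1.6e-13) and 41.6% against 44.4% in the DN library (adjusted p = 0.102). The share was lower for TRBV14 in each library and the test passed in CD8 T cells alone, 1 of 3, where 71.4% of such tests over all V genes passed. In CD4 T cells 37.2% of in-frame TRBV14 clonotypes had 14 residues, and 48.4% of their reads. Clonotype 1, with 14 residues, held 330 of these 1789 in-frame reads, so the share by reads rests in large part on it. Weighted by reads, the mean length of TRBV14 in DN T cells was 13.7 residues, against 14.3 for other V genes. CDR3s of 11 or fewer residues held 13.4% of TRBV14 reads there, against 4.21%. By clonotypes they made up 4.68% against 4.40%, so the gap lay in the reads. A share of reads can rest on few clonotypes, and the gap does not show that large TRBV14 clonotypes were short in general.

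**Figure D4:**
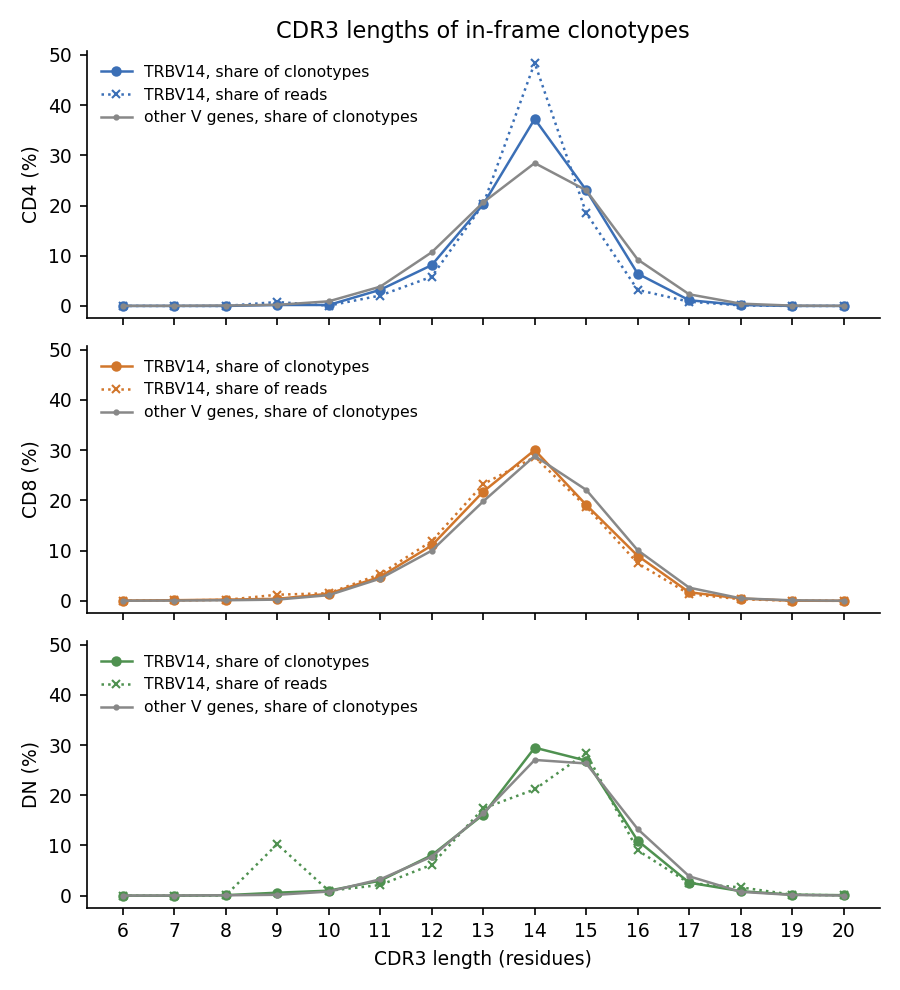
Distribution of CDR3 length in residues for in-frame clonotypes of each library, as the share (%) of TRBV14 clonotypes (solid, coloured), of TRBV14 reads (dotted, coloured) and of clonotypes of other V genes (grey). The peak at 14 residues in CD4 T cells holds 48.4% of TRBV14 reads, among them the 330 reads of clonotype 1.

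TRBV14 clones were concentrated in CD4 and DN T cells and spread over many small clonotypes in CD8 T cells. The largest clonotype held 330 reads or 17.3% of TRBV14 reads in the CD4 (15.6 to 19.0%), 72 reads or 0.793% in the CD8 (0.630 to 0.998%) and 479 reads or 9.44% in the DN library (8.66 to 10.3%). The 10 largest held 36.0%, 4.38% and 28.4%. It took 30 clonotypes in the CD4, 1198 in the CD8 and 47 in the DN library to reach 50% of TRBV14 reads. At an equal depth of 1910 TRBV14 reads the expected number of clonotypes was 603 in the CD4, 1556 in the CD8 and 619 in the DN library. The CD8 library thus held more TRBV14 clonotypes per read than either of the others, which were close to each other. This was not particular to TRBV14. Other V genes also had the fewest reads per clonotype in CD8 T cells, 1.87 against 2.98 in CD4 and 4.63 in DN T cells. The shares of the largest clonotypes were not computed for other V genes.

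At the other end of the size range TRBV14 was close to the rest of the repertoire. Single-read clonotypes were 63.5% of TRBV14 clonotypes in the CD4 (against 62.0% for other V genes, exact test, adjusted p = 0.573), 67.1% in the CD8 (against 69.1%, adjusted p = 0.0106) and 55.4% in the DN library (against 56.5%, adjusted p = 0.573). The test passed in 1 of 3 libraries, CD8, where 34.9% of such tests over all V genes passed. TRBV14 clonotypes had 3.17, 1.74 and 4.59 reads on average in CD4, CD8 and DN T cells, against 2.98, 1.87 and 4.63 for other V genes.

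Clonotypes were shared between libraries when the nucleotide CDR3, V gene and J gene were the same. The CD4 and CD8 libraries had 72 TRBV14 clonotypes in common, CD4 and DN had 70, CD8 and DN had 244, and 37 were in all 3. A TRBV14 clonotype of DN T cells was found in CD8 T cells in 22.0% of cases (19.7 to 24.6%), against 18.4% for other V genes (exact test, adjusted p = 0.0064). Of the 21 V genes TRBV14 had the highest share found in CD8 T cells, but other V genes were close. TRBV1 had 20.9%, TRBV13-3 20.9% and TRBV17 20.3%, all inside the interval of TRBV14. A TRBV14 clonotype of DN T cells was found in CD4 T cells in 6.32% of cases, against 9.02% (exact test, adjusted p = 0.0032). From the CD8 side the shares were lower than for other V genes: 1.38% were found in CD4 (against 5.03%, exact test, adjusted p = 7.5e-42) and 4.68% in DN T cells (against 9.91%, adjusted p = 2.5e-40). From the CD4 side they were higher, with 11.9% found in CD8 (against 8.66%, exact test, adjusted p = 0.0132) and 11.6% in DN T cells (against 8.33%, adjusted p = 0.0116). All 6 tests passed, 3 higher and 3 lower, where 58.7% of the sharing tests over all V genes passed.

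These shares depend on how many TRBV14 clonotypes the other library held, and CD8 T cells held the most. Per 1000000 possible pairs of TRBV14 clonotypes, DN and CD8 T cells shared 42.3, DN and CD4 shared 105, and CD8 and CD4 shared 22.9. The medians of the other V genes were 66.2, 46.3 and 27.2, and TRBV14 ranked 13, 8 and 12 of 21. On this scale TRBV14 lay below the median V gene for DN with CD8 T cells, and above it for DN with CD4 T cells. The scale itself depends on how many clonotypes a V gene has. The highest value for DN with CD8 T cells, 5747, was that of TRBV21, with 3 shared of 18 DN and 29 CD8 clonotypes. The ranks therefore do not separate sharing from the number of clonotypes of each V gene. When only clonotypes were counted that had 2 or more reads in each of both libraries, the higher share of DN clonotypes found in CD8 T cells no longer passed (1.18 percentage points above other V genes, exact test, adjusted p = 0.689). The same held for CD4 clonotypes found in CD8 T cells (3.89 points, exact test, adjusted p = 0.0953) and in DN T cells (0.909 points, adjusted p = 0.781).

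Most large DN clones with TRBV14 were present in CD8 T cells, at a lower level. All 20 of the largest in-frame TRBV14 clonotypes of DN T cells, with 36 to 479 reads, were found in the CD8 library. They were there at 3.58 to 33.7% of their DN share (median 15.7%), the lowest from 1 CD8 read. Of the 20, 12 were found in CD4 T cells. Of the 89 DN clonotypes with at least 10 reads, 74 (83.1%) were found in the CD8 library and 29 (32.6%) in the CD4 library, against 83.3% and 48.8% for other V genes. None of the 89, which were picked for their size in DN T cells, had a larger share in CD8 or CD4 T cells. Of 2798 such clonotypes of other V genes, 25 had a larger share in the CD8 library and 44 in the CD4 library. Where found in CD8 T cells, the median share was 16.4% of the DN share for TRBV14 and 19.3% for other V genes. By reads, 66.1% of DN TRBV14 reads were in clonotypes also found in CD8 T cells, against 66.6% for other V genes.

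Fewer of the large CD8 clones with TRBV14 were present in DN T cells. Of the 50 TRBV14 clonotypes with at least 10 reads in CD8 T cells, 11 (22.0%, 12.8 to 35.2%) were found in DN T cells, against 64.5% (61.3 to 67.6%) for other V genes. Of these 11, 6 had a larger share in DN than in CD8 T cells, against 433 of 571 for other V genes. Only 9 of the 50 (18%) were found in CD4 T cells, against 54.0%. Clonotypes seen in the CD8 library alone made up 94.7% of its TRBV14 clonotypes and 88.7% of its TRBV14 reads, against 87.6% and 71.0% for other V genes. These shares of large and unshared clonotypes were not tested. Nor were the large clonotypes matched in size: the largest CD8 clonotype had 72 reads for TRBV14 and 3260 for other V genes. With clonotypes of more than 1 library left out, TRBV14 had 1.27% of TCR beta reads in the CD4, 7.40% in the CD8 and 2.65% in the DN library.

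**Figure D5:**
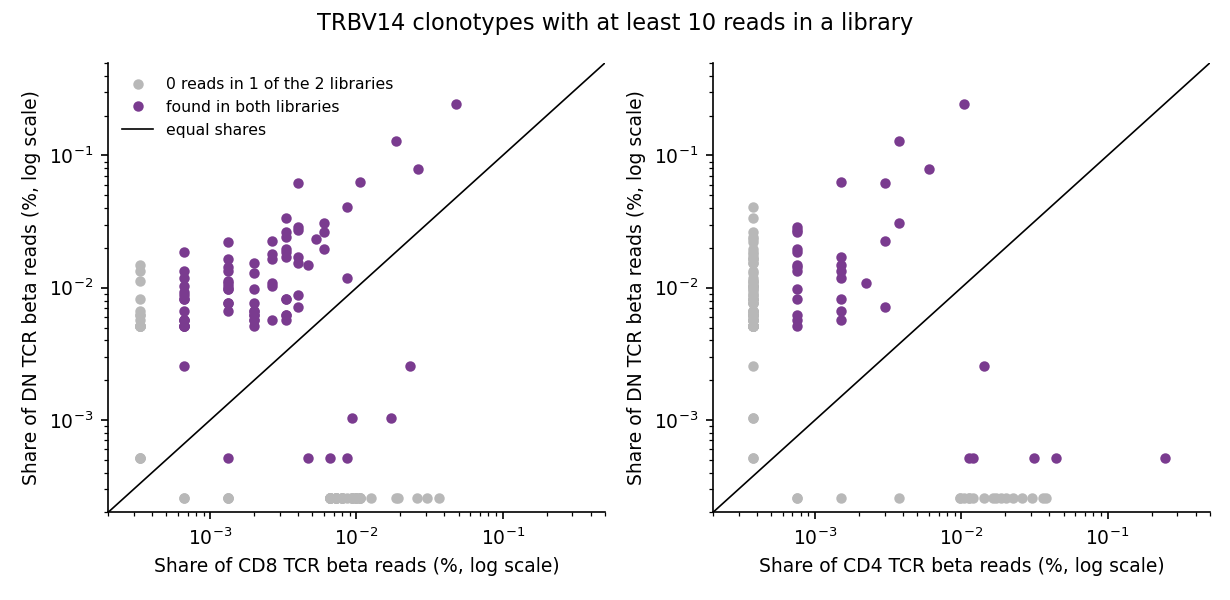
Shares of TCR beta reads (%, log scales) of the 155 TRBV14 clonotypes with at least 10 reads in any library, in DN against CD8 T cells (left) and in DN against CD4 T cells (right). Purple points were found in both libraries of a panel, grey points had 0 reads in 1 of them and are drawn at 0.5 reads, and the line marks equal shares. The 74 large DN clonotypes found in CD8 T cells lie above the line, and many CD8 clonotypes lie on the floor with 0 DN reads.

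The 7 printed clonotypes show both patterns. Clonotype 6 had 5 reads in the CD4, 28 in the CD8 and 252 in the DN library, and clonotype 7 had 8, 40 and 153. Both followed the order DN, CD8, CD4, with a CD8 share of 14.3% and 33.7% of the DN share.

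The other 5 had nearly all their reads in 1 library. Clonotype 1 had 330 reads in the CD4, 7 in the CD8 and 1 in the DN library, and clonotype 2 had 59, 2 and 1. Clonotype 3 had 51 reads in CD4 T cells and 0 in the others, and clonotype 5 had 46 in CD8 T cells and 0 in the others. Clonotype 4 had 1 read in the CD4, 55 in the CD8 and 0 in the DN library. A count of 0 allows a share of up to 0.00224% in the CD4, 0.00199% in the CD8 and 0.00154% in the DN library.

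Clonotypes 1 and 3 resembled each other beyond their V and J genes. Both had glutamine and glycine, then 1 further residue, then the last 6 residues of the CDR3 from TRBJ2-5. In-frame TRBV14 clonotypes with this ending, a pattern chosen after its values were seen and not tested, numbered 24 in the CD4, 21 in the CD8 and 5 in the DN library. They made up 17.02% of the TRBV14 clonotypes joined to TRBJ2-5 in the CD4, 2.21% in the CD8 and 2.31% in the DN library. Among TRBJ2-5 clonotypes of other V genes the ending was in 1.30%, 0.984% and 0.648%.

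In CD4 T cells these 24 clonotypes held 495 reads, 27.7% of in-frame TRBV14 reads, and 3 were among the 10 largest. In CD8 T cells they held 59 reads (0.663%) and in DN T cells 7 reads (0.143%). Of the 24 CD4 clonotypes, 23 had 14 residues, 23 had a TRBD1 call and 23 were in no other library. They encoded 15 different CDR3s. One of these was encoded by 5 nucleotide sequences in CD4 T cells, the most of any TRBV14 CDR3 there. All 5 are shown because they encode the same residues with different bases. Some differ by 1 base, and without molecular identifiers copying errors cannot be told apart from separate joins. None of the 5 had a read in CD8 or DN T cells.
Version 1, 22 reads: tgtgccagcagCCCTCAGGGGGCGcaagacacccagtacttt
Version 2, 7 reads: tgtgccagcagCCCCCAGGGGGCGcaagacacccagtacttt
Version 3, 5 reads: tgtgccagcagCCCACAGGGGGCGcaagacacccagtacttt
Version 4, 4 reads: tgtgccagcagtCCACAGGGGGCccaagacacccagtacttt
Version 5, 2 reads: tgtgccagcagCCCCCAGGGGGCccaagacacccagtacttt

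Most TRBV14 CDR3s of each library were encoded by 1 nucleotide sequence. In CD4 T cells 21 of 501 amino acid CDR3s (4.19%) were encoded by more than 1 nucleotide sequence, against 5.29% for other V genes. In CD8 T cells 295 of 4699 (6.28%) were, against 6.85%, and the most was 6 sequences for 1 CDR3. In DN T cells 21 of 983 (2.14%) were, against 5.18%, and none by more than 2 sequences. The share was lower than that of other V genes in each library and was not tested. The other V genes were pooled and not matched to TRBV14 in their number of clonotypes.

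Residues 6 and 7 of the CDR3 lie at the centre of the loop, and hydrophobic residues at both are known from self-reactive receptors. Among in-frame TRBV14 clonotypes of 11 to 18 residues, both positions were hydrophobic in 4 of 527 in the CD4 (0.759%, 0.296 to 1.94%), 29 of 4944 in the CD8 (0.587%, 0.409 to 0.841%) and 19 of 984 in the DN library (1.93%, 1.24 to 2.996%). Other V genes had 1.14%, 1.29% and 1.99%. The DN interval lay above that of CD8 T cells for TRBV14. This difference compares 1 library with another and was not tested.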

How the data were processed

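Cells were FACS sorted, and libraries were prepared from mRNA with the Takara SMARTer Mouse TCRa/b kit. With MiXCR the authors built clonotypes from the reads. Its version, the germline reference and any filter on reads are not given in the sources used here. The deposited tables gave for each clonotype a read count, not normalized, and its fraction of the library's reads. The fraction was not used further.

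TRB clonotypes were those with a TRBV and a TRBJ call. No TRBV14 clonotype lacked a TRBJ gene, and no filter on reads was applied. The RefSeq gene list of GRCm38.p6 gives Tcrb-V13 and BV13S1 as synonyms of Trbv14 and was used for names only. In frame meant a translated CDR3 without a frameshift or stop mark.

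For the 21 V genes with at least 100 reads in each library, clonotypes of each V gene were compared with those of all other TRB V genes inside a library by two-sided Fisher's exact tests. P-values were adjusted (Benjamini-Hochberg) over all V genes, categories and libraries of a family, a wider family than planned, and the threshold was 0.05. Shares have 95% Wilson intervals, and ratios of shares have intervals from the counts on a log scale. For a count of 0 the limit given was 3 counts of the library total. Shares of clonotypes looked up in another library were given below that limit too, down to 1 read. Numbers at equal depth were computed exactly. J ends were defined like the V end. The 3 largest TRBV14 clonotypes of each library were named, except 1 that is not reported here. The members, lists and rules were chosen with earlier results of these data known. The alternatives covered reading frame, at least 2 reads, merging of clonotypes 1 mismatch from one with at least 10 times the reads, removal of the 10 largest, clonotypes as the unit, and other cuts. Leaving out clonotypes of several libraries was, for the shares, an alternative chosen after seeing the data. The J tests and the numbers at equal depth were checked on simulated data, and the merging on a small made-up example. The other tests were not checked in this way. Scripts ran in Python 3.11.15 with pandas 2.3.3, SciPy 1.17.1, matplotlib 3.10.9 and NumPy 2.4.6.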

Additional observations from a re-analysis of the deposited data

Results flagged for a closer look

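The in-frame share of TRBV14 clonotypes differed from that of other V genes in opposite directions in CD4 and CD8 T cells, by −4.51 percentage points in CD4 and by 1.95 in CD8. The difference between the libraries was not tested.

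The share of TRBV14 clonotypes that was also found in DN T cells was above that of other V genes for clonotypes of CD4 T cells, by 3.27 percentage points, and below it for clonotypes of CD8 T cells, by −5.23 percentage points. With at least 2 reads in both libraries the CD4 value was 0.909 percentage points and no longer passed (exact test, adjusted p = 0.781), and the CD8 value was −8.68. This difference was not tested either.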

How the results depend on the processing

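Of 262 comparisons of a result with an alternative setting, 212 gave the same direction and call or stayed within the counting interval. The share of TRBV14 reads moved without the 10 largest clonotypes to 0.919% in the CD4, 5.77% in the CD8 and 1.88% in the DN library, and the ratios to 6.28 (CD8 to CD4), 0.327 (DN to CD8) and 2.05 (DN to CD4). Over clonotypes the shares were 1.35% in CD4 and 6.42% in CD8, and the ratios 4.77, 0.411 and 1.96. With clonotypes found in 1 library only they were 1.27% and 7.40%, and 5.84, 0.358 and 2.09. With at least 2 reads the CD8 share was 5.88%. The order of the 3 libraries and the side of 1 of each ratio held under all of these.

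With at least 2 reads, fewer clonotypes were tested. The in-frame difference from other V genes was then −2.26 percentage points in CD4 T cells (no longer passing) and 0.236 in DN T cells (opposite in sign, not passing before or after). The number of J tests passed was 7 instead of 14, and junctions without a D call in DN T cells differed by −2.58 points and no longer passed. Long CDR3s passed as lower in CD4 T cells with a cut of 17 residues (−1.54 points) and, among clonotypes found in 1 library only, in CD4 (−5.97) and DN T cells (−4.63). Sharing with at least 2 reads in both libraries no longer passed for CD4 clonotypes in CD8 (3.89 points) and DN T cells (0.909) or for DN clonotypes in CD8 T cells (1.18).

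The J genes TRBJ1-1, TRBJ1-5 and TRBJ2-1 changed sign in libraries where they had not passed for TRBV14. With at least 2 reads they were TRBJ1-5 (0.614 in the CD4, 0.125 in the CD8 and −0.162 points in the DN library), TRBJ2-1 in CD4 (2.43) and TRBJ1-1 in CD8 T cells (0.0523). For clonotypes found in 1 library only TRBJ1-5 was at 0.197 in CD4 and −0.105 in DN T cells. Over all reading frames TRBJ1-5 was at 0.210 in CD4, and TRBJ2-1 at 0.000717 in CD4 and 0.157 in DN T cells. After merging of near-identical clonotypes TRBJ2-1 was at 0.0300 in CD4 and 0.0999 in DN T cells, and TRBJ1-5 at −0.0709 in DN T cells. The cause of these changes was not tested.

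No paired analysis was possible because each subset had 1 library of 1 mouse, so there was no replicate to leave out. Depth limits sharing, since a clonotype listed in 1 library alone was below 1 read in the others. D calls of short junctions are uncertain.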
